A study of Homo sapiens with 6 samples.

Results

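The abundant noncoding RNAs MALAT1, NEAT1, RN7SK, RMRP, RPPH1, TUG1 and KCNQ1OT1 were described in PC-3 cells, an established human prostate cancer line. They were 7 of the 19491 rows of the expression tables, found by their gene names. They had been picked with their levels and differences in these samples already known, so both are given as a description without a test. Cells were left untreated (control) or received GPNA at 1 mM or BenSer at 10 mM over 48 h; both are blockers of the glutamine transporter ASCT2 (SLC1A5). The study asked how blocking ASCT2 changes gene expression across the genome. All groups were the same line, and the doses of the 2 compounds differed, so their values stand side by side.

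MALAT1 and NEAT1 are long RNAs that stay in the nucleus, MALAT1 in nuclear speckles and NEAT1 as the scaffold of paraspeckles. RN7SK, RMRP and RPPH1 are short structured RNAs made by RNA polymerase III, each the RNA core of a particle: RN7SK of the 7SK particle that holds the elongation factor P-TEFb inactive, RMRP of RNase MRP, and RPPH1 of RNase P, which trims the 5′ ends of tRNA precursors. KCNQ1OT1 is an imprinted antisense RNA that silences neighbouring genes in cis, and TUG1 is a long RNA found in nucleus and cytoplasm.

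The RNA was total RNA, so transcripts without a poly(A) tail were kept. The tables held 4 columns per group, of which 2 matched a labelled sample and were used, in CPM (counts scaled to library size: the reads of a gene over all reads of its library, times 1e6). Library totals ran from 23077986 to 32178154 reads, and the listed genes took 51.6% to 52.7% of them. The 2 columns of a group were nearly as alike as random sampling of reads would make them, since their chi-square over its degrees of freedom was 1.06 (control), 1.05 (GPNA) and 1.05 (BenSer). Columns of different groups gave 5.50 to 20.7. Each group was thus taken as 1 sample. The differences below have no replicate check, because the other 2 columns of each group matched no labelled sample and were left out. When the files were inspected, MALAT1 and NEAT1 in the unused control columns were seen to differ clearly from the 2 control columns used, so their differences below hold for the columns used and may not hold over all columns. Intervals are exact 95% intervals computed from the summed reads of a group. They hold counting error alone, because these columns did not measure the spread between cultures. The epithelial markers KRT8 (289 CPM in control), KRT18 (108), KRT19 (669), EPCAM (97.8) and CDH1 (87.3) were present, while the prostate gene FOLH1 (0.842 CPM) and the fibroblast gene COL1A1 (5.57) were low and TMPRSS2 stood at 16.5 CPM. KLK3, KLK2, PTPRC and PECAM1 had no row in the tables used.

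The 7 RNAs took 2.55% of all reads in control, 2.90% with GPNA and 3.37% with BenSer. The 3 short RNAs made up most of this, at 2.26%, 2.54% and 2.78%. The 4 long RNAs went from 0.298% in control to 0.365% with GPNA and 0.588% with BenSer. CPM is a share of the library, and in bulk RNA a change per cell and a change in the mix of cells cannot be told apart.

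**Figure D1:**
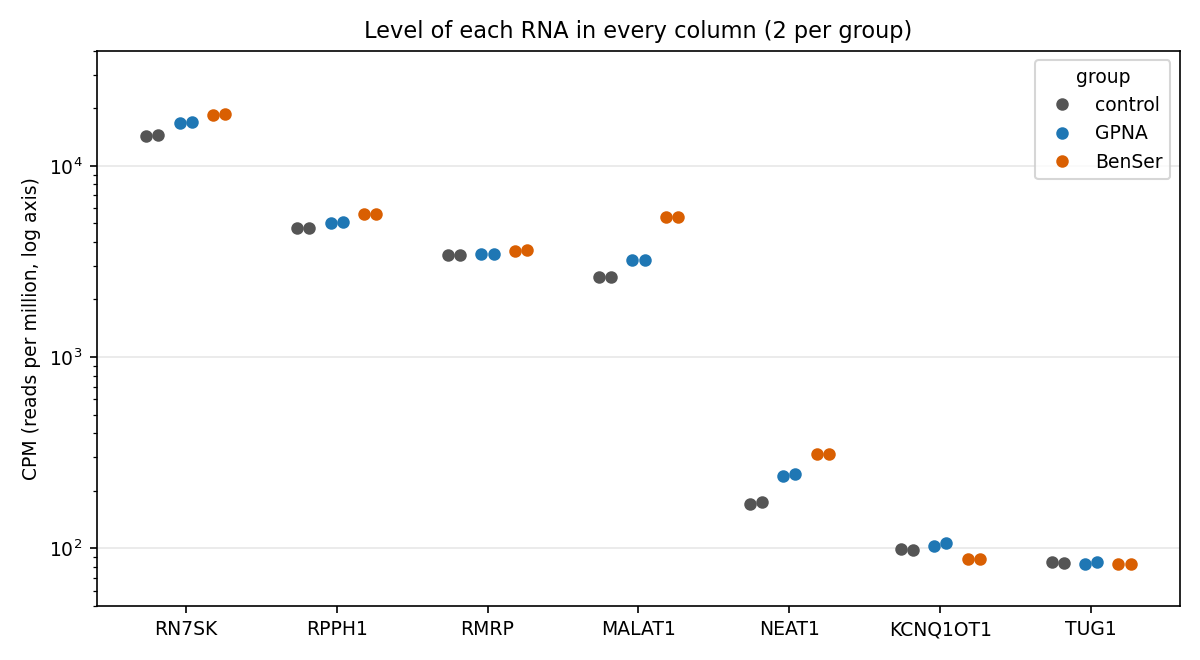
CPM of each RNA on a log axis, with 1 point per column and 2 columns per group. The columns of a group lie close together for all 7 RNAs, and MALAT1 shows the widest step, from 2627 CPM in control to 5401 CPM with BenSer (group means).

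In the columns used, MALAT1 and NEAT1 showed the largest differences of the 7, and both were higher with each compound. Their tight counting intervals do not cover the spread between control columns noted above. MALAT1 stood at 2633 and 2621 CPM in the control columns. With GPNA it stood at 3227 and 3222 CPM. With BenSer it stood at 5426 and 5376 CPM. The columns of the 3 groups did not overlap, and BenSer was the highest. On the log2 scale of mean CPM plus 1 the difference from control was 0.30 under GPNA (interval 0.28 to 0.31) and 1.04 under BenSer (1.03 to 1.05), a 1.23-fold and a 2.06-fold higher level. By read count MALAT1 went from rank 7 among all genes in control and with GPNA to rank 5 with BenSer.

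NEAT1 measured 169 and 173 CPM in control. The GPNA columns held 238 and 244 CPM. The BenSer columns held 311 and 311 CPM. Again the groups did not overlap and had the same order as for MALAT1. NEAT1 differed from control by a log2 value of 0.49 (0.45 to 0.53) under GPNA and 0.86 (0.82 to 0.90) under BenSer, or 1.41-fold and 1.82-fold. Its difference was larger than that of MALAT1 under GPNA and smaller under BenSer. Its rank moved from 399 in control to 217 with GPNA and 131 with BenSer.

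The genes of the pair are neighbours on chromosome 11 (GRCh37), NEAT1 at chr11:65190245-65213011 and MALAT1 at chr11:65265111-65275544, both on the plus strand and both annotated as long noncoding RNA genes. The full-length transcript of each is known to end in a genomic A-rich tract that folds back on U-rich motifs, not in a poly(A) tail. This end is freed when RNase P cuts before a tRNA-like element. The NEAT1 row counted here does not separate the full-length form from shorter ones. These 150 bases hold that end in both genes, and are shown because they join the pair to RPPH1. Capitals mark, in this order, a U-rich motif (TTTGCTTTT), AGCAAAAG at the end of the A-rich tract and a stretch of the tRNA-like element (GGGGTTC). The tract's last base is the last A of AGCAAAAG, and the G is the base after it.
MALAT1, chr11:65273498-65273647, plus strand: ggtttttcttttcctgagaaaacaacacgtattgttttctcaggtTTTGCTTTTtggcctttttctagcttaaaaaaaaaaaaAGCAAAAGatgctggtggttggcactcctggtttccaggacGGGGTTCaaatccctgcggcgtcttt
NEAT1, chr11:65212922-65213071, plus strand: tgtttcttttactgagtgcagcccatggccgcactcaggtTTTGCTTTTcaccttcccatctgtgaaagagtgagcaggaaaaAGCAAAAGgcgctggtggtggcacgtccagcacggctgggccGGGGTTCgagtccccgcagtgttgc
The annotated NEAT1 gene ended exactly at the last A of its AGCAAAAG, position 65213011. The annotated MALAT1 gene ran on past the same point (position 65273587) to 65275544. On the transcribed strand, 0 of the last 150 bases of 56282 annotated genes held the 3 motifs together. The NEAT1 stretch above reaches past its annotated end, and the MALAT1 stretch lies before its own. The count thus could not find either stretch and does not measure how rare the motifs are. The match is of letters only.

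Of 18 other listed genes within 200 kb, a window chosen after the values were seen, 0 were at least 1.5-fold higher or lower with either compound. Their log2 differences had a median of -0.10 under GPNA and 0.01 under BenSer, and that of all genes was -0.03 in both comparisons.

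RN7SK was the most abundant of the 7 by a wide margin and was higher with both compounds. The control columns held 14403 and 14467 CPM. The GPNA columns held 16780 and 16903 CPM. The BenSer columns held 18526 and 18606 CPM. The groups did not overlap and had the order control, GPNA, BenSer. RN7SK differed from control by a log2 value of 0.22 (0.22 to 0.23) under GPNA and 0.36 (0.36 to 0.37) under BenSer, or 1.17-fold and 1.29-fold. RN7SK kept rank 2 in all 3 groups. The 15 listed RN7SK pseudogenes, which could take some of its reads, summed to 9.31 CPM in control, 11.1 with GPNA and 11.4 with BenSer, at most 0.0658% of RN7SK in any group.

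RN7SK lies at chr6:52860418-52860748 on the plus strand, a gene of 331 bases. Its 5′ hairpin binds HEXIM proteins through GAUC repeats, the contact by which P-TEFb is held. The first 110 bases are shown to place these repeats, with GATC in capitals.
RN7SK, chr6:52860418-52860527, plus strand: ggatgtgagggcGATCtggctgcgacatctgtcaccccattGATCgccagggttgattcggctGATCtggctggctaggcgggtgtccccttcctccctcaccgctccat
The stretch held 3 GATC, a motif that reads the same on both strands. Of the first 110 bases of 58154 annotated genes, 213 (0.366%) held at least 3. RN7SK itself was among these genes and its pseudogenes were not left out, so the share is not one of unrelated genes. How many of the 213 are RN7SK copies was not counted.

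Over all genes tested, 56.7% lay below control with GPNA and 55.4% with BenSer, the background for the counts of gene lists that follow. Among genes of at least 50 CPM in either group the share was higher with GPNA. It lay between 66.5% and 76.7%, the shares below TUG1 (-0.01) and RMRP (0.02). With BenSer it lay between 55.8% and 71.2%, the shares below TUG1 (-0.03) and RMRP (0.09). The lists were not compared with genes of like level, so their counts alone do not set them apart from such genes. Of 7 genes for proteins of the 7SK particle, 5 lay below control with GPNA and 5 with BenSer (4 with TMM scaling), none past 1.5-fold, and the medians were -0.07 and -0.08 (-0.04 and -0.04 with TMM). HEXIM1, the P-TEFb inhibitor that binds the hairpin above, was the lowest with BenSer, at 59.6 CPM in control, 50.7 with GPNA and 48.6 with BenSer (log2 differences -0.23 and -0.29). CCNT1, the cyclin of P-TEFb, was the highest, at 54.7, 55.5 and 60.7 CPM (0.02 and 0.15).

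RPPH1 was slightly higher with both compounds. It stood at 4720 and 4701 CPM in control. With GPNA it stood at 5031 and 5063 CPM. With BenSer it stood at 5582 and 5595 CPM. The groups did not overlap, with log2 differences of 0.10 (0.09 to 0.11) and 0.25 (0.24 to 0.25), or 1.07-fold and 1.19-fold. Its gene was annotated with 638 bases, at chr14:20811207-20811844 on the minus strand. As annotated it overlaps PARP2 on the opposite strand by 71 bases. PARP2, a DNA repair enzyme, stood at 24.6, 23.7 and 21.6 CPM, far below RPPH1, with log2 differences of -0.05 (-0.17 to 0.06) and -0.18 (-0.30 to -0.07).

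RMRP, the RNA most like RPPH1 in its protein partners, differed least among the short RNAs. It measured 3396 and 3425 CPM in control. The GPNA columns held 3461 and 3474 CPM. The BenSer columns held 3602 and 3646 CPM. The groups did not overlap, but the gap between control and GPNA was close to the gap between columns, with log2 differences of 0.02 (0.01 to 0.03) and 0.09 (0.08 to 0.10). RMRP lies at chr9:35657751-35658014 on the minus strand and was matched to the annotation by name.

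Of 11 genes for proteins of RNase P and RNase MRP, 9 were below control with GPNA and 9 with BenSer, none past 1.5-fold, with medians of -0.06 and -0.09. With TMM scaling the counts were 8 and 7 and the medians -0.02 and -0.04. The lowest with BenSer was RPP40 (9.65, 9.39 and 6.99 CPM in control, GPNA and BenSer) and the highest at 1 CPM or more was RPP25L (3.97, 3.90 and 4.12 CPM).

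Of 29 genes for subunits and factors of RNA polymerase III, 22 were below control with GPNA and 21 with BenSer, with medians of -0.10 and -0.11 and none past 1.5-fold. With TMM scaling the counts were 21 and 17 and the medians -0.06 and -0.07. The background shares above were taken with the deposited totals and not with TMM, under which the median of all genes was 0.0017 (GPNA) and 0.0033 (BenSer). POLR3G, a polymerase subunit, was the lowest with BenSer (64.2, 55.2 and 43.1 CPM). BRF2, the initiation factor for genes of the RN7SK type, was the highest (2.48, 2.61 and 2.96 CPM, on 115 reads in control). Other RNA polymerase III transcripts went both ways. Of 17 sought, 7 were listed, and 3 lay above and 4 below control with each compound. VTRNA1-2, RNU6-2 and RNU6ATAC held only 12 to 32 reads per group, and their counting intervals spanned 0. RN7SL1 stood at 17928, 19959 and 20278 CPM (log2 differences 0.15 and 0.18). RN7SL3 stood at 774, 723 and 728 CPM (-0.10 and -0.09). RN7SL2, an RNA of the signal recognition particle, stood at 7222, 7413 and 8494 CPM, a log2 difference of 0.23 with BenSer. BCYRN1, the brain cytoplasmic RNA, stood at 25.9, 18.5 and 19.5 CPM, a log2 difference of -0.39 with BenSer. The list's median was -0.04 with GPNA and -0.09 with BenSer. It turned positive with BenSer under a filter of 20 mean reads (0.04) and with GPNA without GPNA replicate 2 (0.0035).

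**Figure D2:**
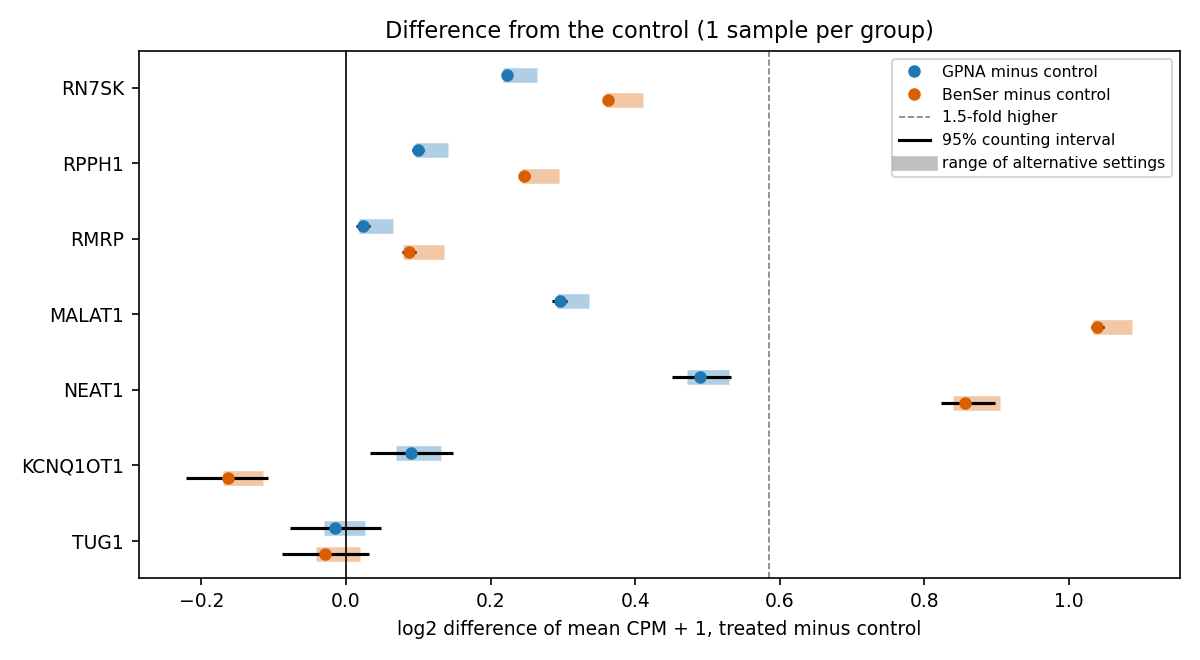
Log2 difference of mean CPM plus 1 from control for each RNA, with points for GPNA and BenSer, thin lines for 95% counting intervals and wide bands for the range of alternative scalings, filters, pseudocounts and left-out columns. MALAT1 (1.04) and NEAT1 (0.86) with BenSer lie beyond the dashed 1.5-fold line, and the bands of TUG1 span 0.

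KCNQ1OT1 was the only one of the 7 with a higher level under one compound and a lower level under the other in which neither counting interval spanned 0. The control columns held 98.6 and 97.6 CPM. The GPNA columns held 103 and 106 CPM. The BenSer columns held 87.6 and 87.5 CPM. The columns of GPNA lay above and those of BenSer below control, with log2 differences of 0.09 (0.03 to 0.15) and -0.16 (-0.22 to -0.11). Its gene, at chr11:2618538-2721233 on the minus strand, lies wholly inside KCNQ1 on the opposite strand. KCNQ1, a potassium channel, had 7 reads in control, 16 with GPNA and 27 with BenSer (0.151, 0.312 and 0.421 CPM).

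In the imprinted domain around KCNQ1OT1, 7 of 10 genes sought were listed, and none was past 1.5-fold on the scale of CPM plus 1. That scale understates KCNQ1, whose ratio of plain CPM to control was 2.06 with GPNA and 2.79 with BenSer on the few reads given above. The median was -0.07 with GPNA and -0.02 with BenSer, and the second turned positive with TMM scaling (0.02) and without BenSer replicate 1 (0.02) or 2 (0.03). CDKN1C, a cyclin-dependent kinase inhibitor silenced in cis by KCNQ1OT1, stood at 1.96, 2.28 and 2.46 CPM, and its counting interval with BenSer spanned 0 (-0.05 to 0.71). NAP1L4, a histone chaperone gene, was the lowest with BenSer (65.6, 62.7 and 58.1 CPM).

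No difference was detectable for TUG1 at this depth. It measured 84.9 and 83.4 CPM in control. The GPNA columns held 82.4 and 84.3 CPM. The BenSer columns held 82.9 and 82.1 CPM. Control and GPNA overlapped and BenSer lay just below control. The log2 differences were -0.01 (-0.08 to 0.05) and -0.03 (-0.09 to 0.03), and both turned positive with TMM scaling, at 0.02 and 0.02. TUG1 lies at chr22:31365231-31375381 on the plus strand, and 2 antisense genes overlap it.

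The 7 RNAs had median log2 differences of 0.10 (GPNA) and 0.25 (BenSer), and all genes had -0.03 in both. At 1.5-fold, a threshold that 0.34% of 18828 genes passed upward and 0.0637% downward with GPNA, 0 of the 7 lay higher and 0 lower. With BenSer, 2 of the 7 (MALAT1 and NEAT1) lay higher, a threshold passed by 1.96% of 18976 genes, and 0 lower, as did 1.58% of genes. At 1.2-fold, a threshold added after the values were seen, 2 of the 7 (MALAT1 and NEAT1) were higher with GPNA, where 5.18% of all genes were, and 0 lower, where 5.86% were. At the same threshold 3 (MALAT1, NEAT1 and RN7SK) were higher with BenSer, where 10.4% of genes were, and 0 lower, where 15.0% were. Nothing is read from these shares, since the 7 were chosen on the same contrasts.

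Within the distribution of all genes, 121 genes (0.643%) had a larger log2 difference than NEAT1 with GPNA and 134 (0.706%) with BenSer. For MALAT1 the counts were 696 (3.70%) and 70 (0.369%). For RN7SK they were 1400 (7.44%) and 1110 (5.85%). Among genes of at least 50 CPM in either group, where counting noise is small, 23 of 2524 (0.911%) had a larger difference than MALAT1 with BenSer. RPPH1 and RMRP lay nearer the middle, with 11.5% and 29.2% of all genes above them with BenSer, and TUG1 lay at the middle, with 50.1%. KCNQ1OT1 had 72.7% of genes above it with BenSer and 24.1% with GPNA.

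**Figure D3:**
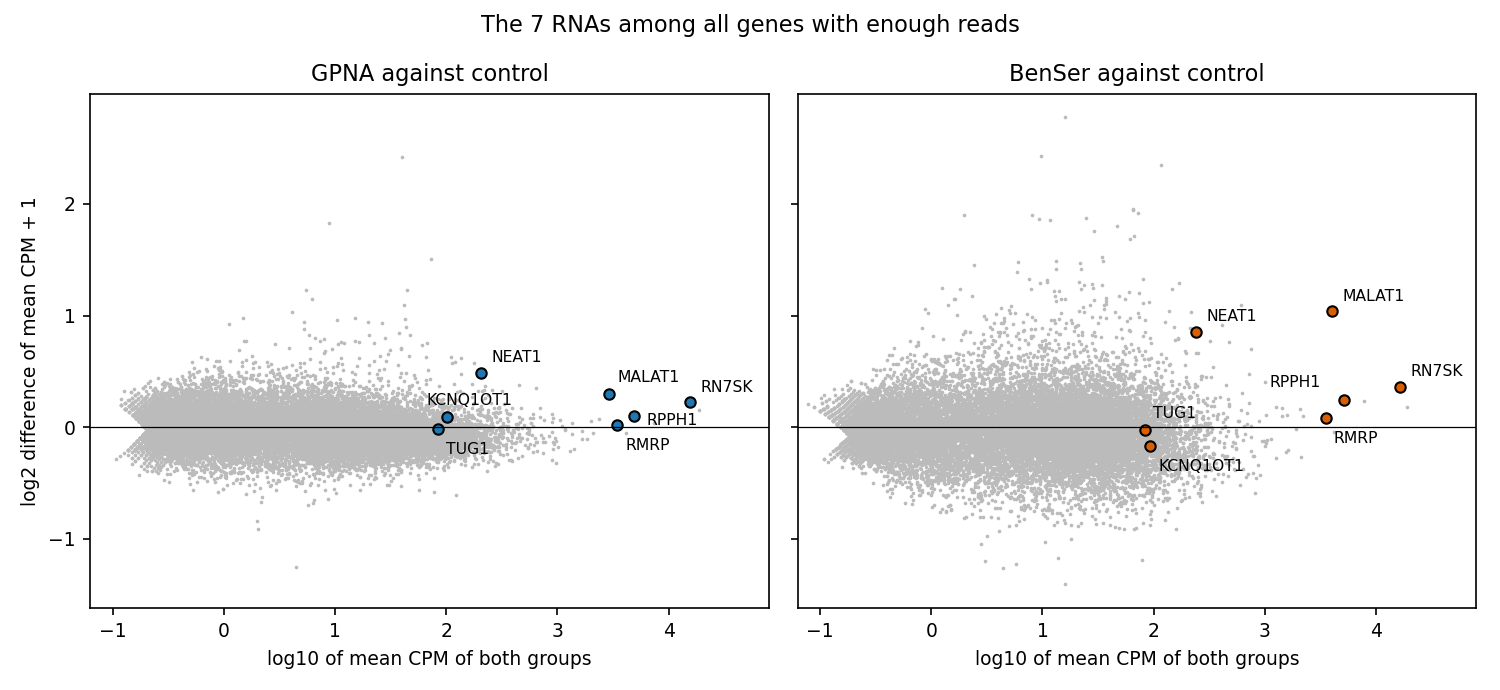
Log2 difference from control against the log10 mean CPM of both groups for all genes with enough reads (grey), with the 7 RNAs named, for GPNA (left) and BenSer (right). MALAT1 and RN7SK lie at the abundant end and above 0 in both panels, where few other genes are found.

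Per length of the annotated gene, the order of levels in control was RN7SK (43611 CPM per kb), RMRP (12919), RPPH1 (7383), MALAT1 (252), TUG1 (8.29), NEAT1 (7.53) and KCNQ1OT1 (1.06). All neighbours in this order differed by more than their columns did. The order of NEAT1 and TUG1 was the other way with GPNA (10.6 for NEAT1 and 8.21 for TUG1) and with BenSer (13.7 and 8.13). These values take the whole annotated gene as the transcript, so a gene with a shorter main isoform is set too low. The annotated lengths were 638 bases for RPPH1, 264 for RMRP, 22767 for NEAT1 and 10151 for TUG1. The order of RMRP against RPPH1 and of NEAT1 against TUG1 rests on these lengths.

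Genes for the proteins of paraspeckles, the bodies built on NEAT1, lay below control. This held for all 12 with both compounds, the medians were -0.14 (GPNA) and -0.36 (BenSer), and 11 or 12 did so under the alternative settings. With BenSer 8 of the 12 were at least 1.2-fold lower, where 15.0% of all genes were. With GPNA 2 of the 12 were, where 5.86% of all genes were. NONO, a core paraspeckle protein, was nearest to control with BenSer, at 246, 225 and 238 CPM (-0.13 and -0.05).

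Genes for nuclear speckles and MALAT1 processing also lay mostly below control. Of 13 genes, 11 were below control with GPNA and 12 with BenSer, with medians of -0.20 and -0.34. At least 1.2-fold lower were 1 with GPNA and 8 with BenSer, where 5.86% and 15.0% of all genes were. SRSF1, a splicing factor of speckles, was the lowest (144, 124 and 97.3 CPM, log2 differences -0.22 and -0.56). METTL16, a methyltransferase that binds the MALAT1 triple helix, was the highest (18.2, 18.4 and 19.2 CPM, 0.02 and 0.07).

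Among 10 genes of repressive chromatin complexes, to which KCNQ1OT1 and TUG1 have been linked, 10 were below control with GPNA and 9 with BenSer, with medians of -0.10 (-0.06 with TMM) and -0.27. DNMT1, the maintenance DNA methyltransferase, was past 1.5-fold with BenSer, at 216, 172 and 137 CPM (-0.33 and -0.66). JARID2, a cofactor of the Polycomb complex PRC2, was the highest (28.7, 27.5 and 32.3 CPM).

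Other long noncoding RNAs went both ways. Of 25 sought, 23 were listed, with 17 above and 6 below control with GPNA (median 0.06) and 9 above and 14 below with BenSer (median -0.08). LINC00467 was the lowest with BenSer and past 1.5-fold, at 6.13, 7.96 and 3.66 CPM, above control with GPNA (0.33) and below it with BenSer (-0.61). TERC, the RNA of telomerase, was the highest with BenSer (53.8, 57.6 and 62.3 CPM, 0.21). A further set was the 97 rows annotated as long noncoding RNA with at least 10 CPM in a group. It holds 4 of the 7 described here, MALAT1, NEAT1, RPPH1 and KCNQ1OT1, while TUG1 was annotated as protein-coding. With BenSer 3 of the 97 (3.09%) were at least 1.5-fold higher, and 3 (3.09%) were lower. Over all genes the shares were 1.96% and 1.58%. MALAT1 and NEAT1, which were chosen on this contrast, are among the 3 higher rows. The median of the 97 was -0.08.

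**Figure D4:**
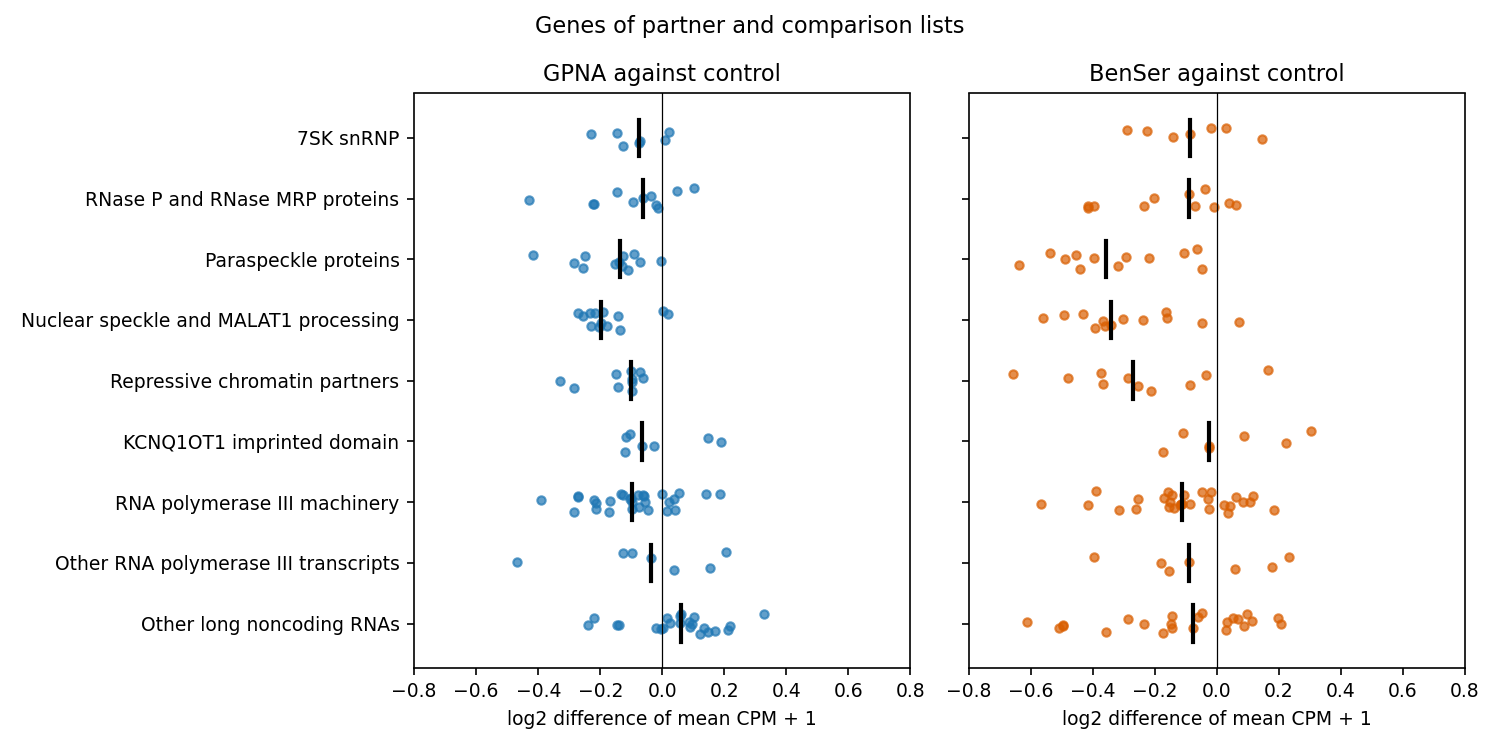
Log2 difference from control of each gene in 9 lists of partner genes and comparison RNAs, with 1 point per gene and a bar at the list's median, for GPNA (left) and BenSer (right). The medians with BenSer lie lowest for paraspeckle proteins (-0.36) and for nuclear speckles (-0.34).

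The genes nearest in pattern to MALAT1 and NEAT1 were sought among 7924 genes of at least 10 CPM, by the Euclidean distance between their pairs of log2 differences over the 2 comparisons, which share the control. For MALAT1 they were PBXIP1 (0.28 with GPNA and 0.99 with BenSer), FAM131B (0.27 and 0.97) and ELF3, an epithelial transcription factor (0.37 and 1.07). For NEAT1 they were KLHL24, a ubiquitin ligase adaptor (0.52 and 0.85), TENM4, a teneurin (0.48 and 0.82), and EIF2AK2, the kinase PKR (0.48 and 0.79). EIF2AK2 was the most abundant of these 6, at 114, 158 and 196 CPM.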

How the data were processed

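Total RNA of PC-3 cells was sequenced paired-end after stranded total RNA library preparation. Per the submitters' processing notes and the study's methods, reads were mapped to hg19/GRCh37.p13 with TopHat2 and Bowtie2, and HTSeq 0.6.2p2 and DESeq are also named; the strand setting of the counting is not given in the sources used here. The authors deposited CPM, each gene's reads divided by the library total, and state a threshold of 5 reads in a group for expression. All values (100% within 1e-06) were whole reads once multiplied by a total, so depth was recovered. Of 16 value columns in the 2 tables, 8 (6 distinct) matched no labelled sample and were not used, although all columns had been displayed when the files were inspected, and MALAT1 and NEAT1 were seen to differ between the used and the unused control columns. The methods state 4 replicates per group; the labels name 2 samples per group. The authors' own fold changes, p-values and adjusted p-values were not used.

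Log2 differences are of mean CPM + 1, treated minus control, over genes that averaged 5 or more reads in one of the groups compared. Library comparisons were run with limma 3.58.1 on log2(CPM + 1), over columns 1 and 2 of the 3 groups with Benjamini-Hochberg adjustment at 0.05, with edgeR 4.0.16 and DESeq2 1.42.0 on recovered reads as alternatives. These compare libraries, not treatments. On the recovered reads edgeR's quasi-likelihood test called 1465 genes higher and 1704 lower with GPNA, and 3597 and 3422 with BenSer, of 19216. Calculations used R 4.3.3 and Python 3.11.15 and were tested on simulated data. Gene positions came from GENCODE lifted to GRCh37 (97.1% of identifiers matched), and sequences from the GRCh37 genome.

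The members and lists were chosen with earlier results of these data known. Named from the lists were genes past 1.5-fold at 1 CPM or more and each list's highest and lowest gene with BenSer, and for members past 1.5-fold the 3 nearest genes in pattern. PARP2 and KCNQ1 were named for their overlap, and every listed gene among the other RNA polymerase III transcripts was named. Some genes that this rule or the marker list would name are not reported here.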

Additional observations from a re-analysis of the deposited data

How the results depend on the processing

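In the columns used, the 7 RNAs were little affected by the processing: no scaling moved a log2 difference by more than 0.048, leaving out a column by more than 0.020, and the direction of MALAT1, NEAT1, RN7SK, RPPH1, RMRP and KCNQ1OT1 was kept under all 13 alternatives. No scaling moved the median of all genes by more than 0.032. MALAT1 had log2 differences with GPNA and BenSer of 0.33 and 1.09 with TMM scaling, 0.33 and 1.09 with DESeq2 size factors, 0.33 and 1.05 with the total of the listed genes, and 0.34 and 1.08 with that total without the 7 RNAs. RN7SK had 0.26 and 0.41, 0.26 and 0.41, 0.25 and 0.37, and 0.26 and 0.40 in the same order, and 0.217 to 0.228 with GPNA when single columns were left out. NEAT1 with BenSer had 0.90 with TMM and 0.91 with DESeq2 factors. TUG1 turned positive with TMM (0.024 with GPNA, 0.019 with BenSer), DESeq2 factors (0.023 and 0.019), the listed total (0.015 with GPNA), the listed total without the 7 RNAs (0.026 and 0.0070) and without GPNA replicate 1 (0.0016, against -0.031 without GPNA replicate 2). At 1.2-fold the count of higher RNAs went from 2 to 3 with GPNA under the last scaling (RN7SK) and from 3 to 4 with BenSer under all but the listed total (RPPH1).

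Counts over all genes moved more. With a pseudocount of 0.1, 879 genes were at least 1.5-fold higher and 652 lower with GPNA, and 1205 and 1397 with BenSer, against 64, 12, 371 and 300. Without single columns of control or GPNA, 23 to 27 genes were at least 1.5-fold lower with GPNA, against 12. The share of genes past 1.5-fold that were higher was 55.3% with BenSer and became 67.0% with TMM and 67.2% with DESeq2 factors. In limma's comparison of libraries 229 genes were called higher and 273 lower with GPNA, and 2139 and 3076 with BenSer. These became 1465, 1704, 3597 and 3422 with edgeR, 558, 699, 2146 and 2021 with DESeq2, and 33, 8, 1634 and 2435 with the pseudocount of 0.1. TMM gave 110 lower with GPNA. Without single columns the calls were 0 to 2 higher and 0 lower with GPNA, and 813 to 1814 higher and 1165 to 2625 lower with BenSer; the group left with 1 column is then assumed to vary like the others. The replicate block left 3 higher and 0 lower with GPNA, and 1815 and 2678 with BenSer. Same-numbered columns deviated together with a correlation of 0.0425 to 0.0662 over 7924 genes. Random sampling accounts for nearly all of these deviations, at a chi-square over degrees of freedom of 1.05 to 1.06. Even a fully shared remainder would therefore give only a small correlation. The check cannot tell whether same-numbered columns share more than a number, and a shared effect was not tested otherwise. Columns of 1 sample measure no spread between cultures, so these counts bound nothing about the treatments.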
